A study of Homo sapiens with 6 samples.

Results

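The Wnt ligands, their receptors, co-receptors and secreted antagonists, and the receptor-like kinase PTK7, were examined in HK-2 cells, a human kidney line made by immortalizing proximal tubule cells. The genes were chosen by symbol: all WNT, FZD, DKK and SFRP genes with a number after the family name, together with LRP5, LRP6, PTK7, ROR1, ROR2, RYK, AXIN1, AXIN2, LGR4, LGR5, RNF43, ZNRF3, CTNNB1, TCF7, TCF7L1, TCF7L2 and LEF1. This rule took 54 of the 20442 genes in the expression table. The table held FPKM, a count of sequenced fragments divided by transcript length and library size, for 3 libraries labelled HNRNPF overexpression (lentivirus carrying HNRNPF, the gene of hnRNP F, a protein that binds RNA and steers splicing) and 3 libraries labelled control (control lentivirus, called a control plasmid in the labels). Cells of both groups were described as kept for 72 h in 30 mM glucose or in 30 mM mannitol, the osmotic control, and the labels did not give the medium of each library. Both groups came from 1 cell line. The study describes biological triplicates and parallel wells, and the labels do not tie a library to a culture, so the p-values stand against a spread among samples that may be technical in part.

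Wnt proteins are secreted, lipid-modified ligands that bind Frizzled receptors. With the co-receptors LRP5 and LRP6, they stop the axin scaffold from directing the destruction of beta-catenin, which then enters the nucleus and acts with TCF and LEF factors. Other branches work without beta-catenin through receptor-like kinases such as the ROR proteins, RYK and PTK7, which steer cell polarity and movement. In the kidney, Wnt signalling shapes the tubules during development and is switched on again in injured tubules.

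The labels were checked first against the delivered gene. HNRNPF (gene ID 3185, GRCh38.p14 chromosome 10, 43385618 to 43409186) had 322.83, 349.84 and 320.8 FPKM in the libraries labelled overexpression, against 555.18, 563.36 and 588.68 FPKM in the libraries labelled control. Its level thus ran opposite to the labels, 1.72-fold lower where overexpression was labelled (SE 0.061 around a log2 fold change of -0.78, with an adjusted p of 1.07e-04 from limma). The groups are named here by their labels, and each direction given rests on them. The study's methods give another gene identifier for the delivered construct, so it is not known whether these values hold the delivered copy. Whether labels were exchanged was not tested, and with exchanged labels every direction here would be the opposite.

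The 6 libraries had 12396 to 12462 genes at an FPKM of at least 1, and Pearson's r across genes lay between 0.989 and 0.994 for pairs from the same group and between 0.978 and 0.985 for pairs from different groups. The kidney epithelial genes PAX8, KRT8 and KRT18 were abundant. Of the same list, PAX2 averaged 3.14 FPKM, and CDH1 was nearly absent, at no more than 0.07 FPKM in any library. The summed kidney epithelial list ran from 1391 to 1492 FPKM in overexpression libraries and from 1433 to 1536 FPKM in control libraries. KRT18, KRT7 and CDH16 were lower in overexpression libraries (log2 fold changes of -0.20, -0.36 and -0.39). Of 12 proximal tubule markers, 9 lay under a mean FPKM of 1, with LRP2, SLC22A6 and SLC22A8 listed at 0 in every library. The summed proximal tubule list was 114 to 130 FPKM in overexpression libraries and 88.3 to 103 FPKM in control libraries, mostly from GGT1, which was higher in overexpression libraries (log2 fold change 0.47). Fibroblast markers summed to 17.3 to 17.6 FPKM in overexpression libraries and 14.6 to 16.2 FPKM in control libraries, and podocyte markers to 33.9 to 41.4 FPKM in overexpression libraries and 30.9 to 41.5 FPKM in control libraries. Within these lists COL1A1 was higher (log2 fold change 0.64) and PODXL lower (-0.80) in overexpression libraries. Leukocyte markers, nearly all CD68, summed to 195 to 218 FPKM in overexpression libraries and 167 to 183 FPKM in control libraries, with PTPRC at no more than 0.04 FPKM, and endothelial markers summed to no more than 0.41 FPKM in any library. The part of these differences in the results below was not tested.

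Of the 54 genes, 32 averaged 1 FPKM or more across the 6 libraries and were tested, 17 lay under that level and 5 (WNT6, WNT7A, WNT8A, FZD10 and DKK2) were listed at 0 in every library. At an adjusted p under 0.05, 5 of the 32 were higher in the libraries labelled overexpression (15.6%, beside 11.3% of all 12461 genes tested) and 4 were lower (12.5%, beside 13.1%). In either direction this was 28.1% of the tested Wnt genes, beside 24.4% of all genes. Both groups were apart, with no overlap between their libraries, for 12 of the 32 (37.5%, beside 42.1% of all genes). The shares were near those of the whole table, and the median log2 fold change was 0.0014 for the 32 genes and -0.013 for all genes tested. A change of at least 2-fold past the test was seen for PTK7 and DKK1, 2 of the 32 (6.25%, beside 1.11% of all genes). PTK7 was in the set by name, and the set was chosen with earlier results of these data known. This share thus cannot measure an excess of large changes. PTK7 passed the filter only through the control libraries and RNF43 only through the overexpression libraries. In bulk RNA, fewer cells that express a gene and less RNA per cell cannot be told apart.

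**Figure D1:**
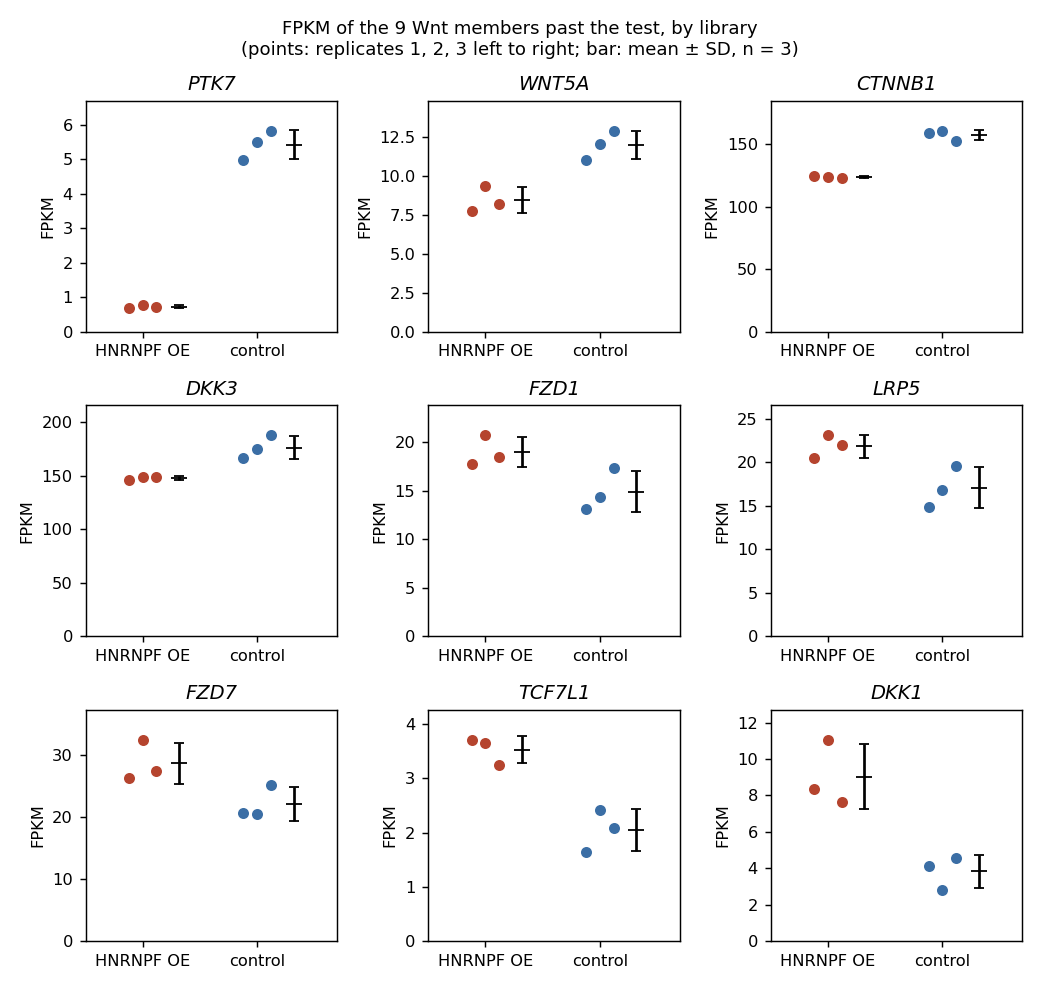
FPKM (y axis, from 0) of the 9 Wnt genes past the test in each library, with the libraries labelled HNRNPF overexpression (red, OE) left of the libraries labelled control (blue); black bars are the mean ± SD of 3 libraries. The PTK7 points of the overexpression libraries lie at 0.70 to 0.77 FPKM and those of the control libraries at 4.97 to 5.82 FPKM, and in each of the 9 panels the groups do not overlap.

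The promoters of the 2 genes past 2-fold are shown because TCF and LEF factors, the nuclear end of the pathway, recognise a core of CTTTG. Read on the opposite strand, the core is CAAAG. Each sequence is RefSeq GRCh38.p14, plus strand, 250 bases before to 50 after the gene's start, with the matches to this core in capitals. PTK7 lies at chr6:43076064-43076363 and DKK1 at chr10:52314031-52314330.
PTK7: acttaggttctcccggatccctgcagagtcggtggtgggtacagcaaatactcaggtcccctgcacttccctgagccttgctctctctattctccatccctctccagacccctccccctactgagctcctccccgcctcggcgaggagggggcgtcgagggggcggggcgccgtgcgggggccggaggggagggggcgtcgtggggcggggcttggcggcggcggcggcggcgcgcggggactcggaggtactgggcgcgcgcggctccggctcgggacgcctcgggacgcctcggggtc
DKK1: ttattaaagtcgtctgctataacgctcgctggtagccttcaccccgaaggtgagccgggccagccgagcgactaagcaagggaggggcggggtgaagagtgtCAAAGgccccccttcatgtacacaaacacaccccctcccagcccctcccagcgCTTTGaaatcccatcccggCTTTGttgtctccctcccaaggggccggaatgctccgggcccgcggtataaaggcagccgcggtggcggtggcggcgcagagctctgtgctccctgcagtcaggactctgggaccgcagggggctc
The DKK1 promoter held 3 matches, at positions -148, -95 and -76 from the start, and the PTK7 promoter shown held none. Another PTK7 promoter was listed at chr6:43076564-43076863, not shown, and also held none. The core is short and occurred in 47.5% of 35116 promoters of 300 bases. A promoter was listed for 38 of the 54 genes, 46 promoters in all. Of these promoters 12 held the core, and they belonged to 10 genes (DKK1, FZD1, LEF1, RNF43, ROR2, TCF7, TCF7L2, WNT3, WNT5B and WNT8B). The longer form CTTTGAT (either strand), in 2.62% of all promoters, occurred in none of the 38, and CTTTGAA, in 4.43% of all promoters, occurred in DKK1 alone. A match is a description of the letters, and no match says only that they are not in this window.

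PTK7, a receptor-like kinase with an inactive kinase domain that acts in planar cell polarity and can join Wnt receptor complexes, was far lower in the libraries labelled overexpression. PTK7 (gene ID 5754, chromosome 6, 43076314 to 43161715) had 0.70, 0.77 and 0.72 FPKM in the overexpression libraries, against 4.97, 5.49 and 5.82 FPKM in the control libraries. The 3 overexpression libraries were low and close together, and the lowest control library was far above the highest of them. The means were 0.73 ± 0.036 FPKM in overexpression libraries and 5.43 ± 0.43 FPKM in control libraries (SD, n = 3 each), 7.43-fold apart. On the log2(FPKM + 0.1) scale used for the test, which understates changes of low genes, PTK7 was 6.65-fold lower (log2 fold change -2.73, SE 0.16, 95% interval -3.09 to -2.37, adjusted p = 2.28e-05 in limma).

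The genes around PTK7 did not share this size of change. The 14 other tested genes within 250 kb had log2 fold changes between -0.23 and 0.39 with a median of 0.043, and 1 of them was past the test in each direction. Over a window of 10 Mb, the median of 66 tested genes was 0.059, and PTK7 had a log2 fold change of -2.79 after this shift was taken off. It was past the test in all 17 alternative settings that tested it, at -2.88 to -1.89. An FPKM per gene does not separate the transcript forms of PTK7.

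The other receptor-like kinases stayed within a narrower range. RYK, a Wnt-binding kinase-like receptor and the most abundant of the 4, had 40.76, 45.44 and 41.13 FPKM in overexpression libraries and 45.91, 43.72 and 42.67 FPKM in control libraries. Its groups overlapped, and its log2 fold change of -0.056 had an interval of -0.21 to 0.098 (adjusted p = 0.576 in limma). ROR1, a receptor for WNT5A, averaged 9.41 ± 0.042 FPKM in overexpression libraries and 10.7 ± 0.26 FPKM in control libraries, with no overlap and an adjusted p of 0.113 from limma (log2 fold change -0.19, interval -0.37 to -0.0085). ROR2 was at or near 0 in every library. Summed over the 4 kinases, the level was 52.6 ± 2.68 FPKM in overexpression libraries and 60.3 ± 1.31 FPKM in control libraries. PTK7 made up 1.39% ± 0.015 of that sum in overexpression libraries and 9.02% ± 0.90 in control libraries (SD, n = 3 each). RYK made up 80.7% ± 0.82 in overexpression libraries and 73.1% ± 1.18 in control libraries (SD, n = 3 each). A lower PTK7 share by itself raises that of RYK.

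Among the 19 ligands, 7 were tested and 1, WNT5A, changed. WNT5A, the ligand best known for signalling without beta-catenin through ROR receptors (gene ID 7474, chromosome 3, 55465715 to 55505263), had 7.76, 9.41 and 8.23 FPKM in overexpression libraries, against 11.07, 12.05 and 12.92 FPKM in control libraries. All 3 overexpression libraries lay below the lowest control library. WNT5A was 1.42-fold lower, at 8.47 ± 0.85 FPKM in overexpression libraries and 12.01 ± 0.93 FPKM in control libraries (log2 fold change -0.50, SE 0.10, interval -0.73 to -0.27, adjusted p = 0.00918 in limma). Its neighbourhood was also lower, with a median of -0.27 for 57 tested genes in 10 Mb, and once this was taken off the log2 fold change was -0.23 (adjusted p = 0.151).

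WNT5B, its close paralog, was the most abundant ligand, with 33.57, 32.96 and 36.67 FPKM in overexpression libraries and 26.57, 26.27 and 33.07 FPKM in control libraries. The third control library overlapped the overexpression libraries and the other two lay below them. The means were 34.4 ± 1.99 FPKM in overexpression libraries and 28.6 ± 3.84 FPKM in control libraries (log2 fold change 0.27, interval 0.055 to 0.49, adjusted p = 0.0673 in limma), and without control replicate 3 the adjusted p was 0.00603. Leaving out other libraries gave adjusted p-values up to 0.227 in limma, and removal of the neighbours' shift gave 0.168. WNT5B was past the test in 2 of 18 alternatives. As shares of the summed ligand level, WNT5A took 14.8% ± 1.23 in overexpression libraries and 22.1% ± 0.81 in control libraries, and WNT5B took 60.1% ± 3.14 in overexpression libraries and 52.4% ± 2.32 in control libraries. In the plot of shares by library, neither share overlapped between groups. Shares of the same sum are not independent, and a lower WNT5A share by itself raises that of WNT5B. The summed ligand level itself was 57.2 ± 1.66 FPKM in overexpression libraries and 54.5 ± 5.33 FPKM in control libraries, with overlap.

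**Figure D2:**
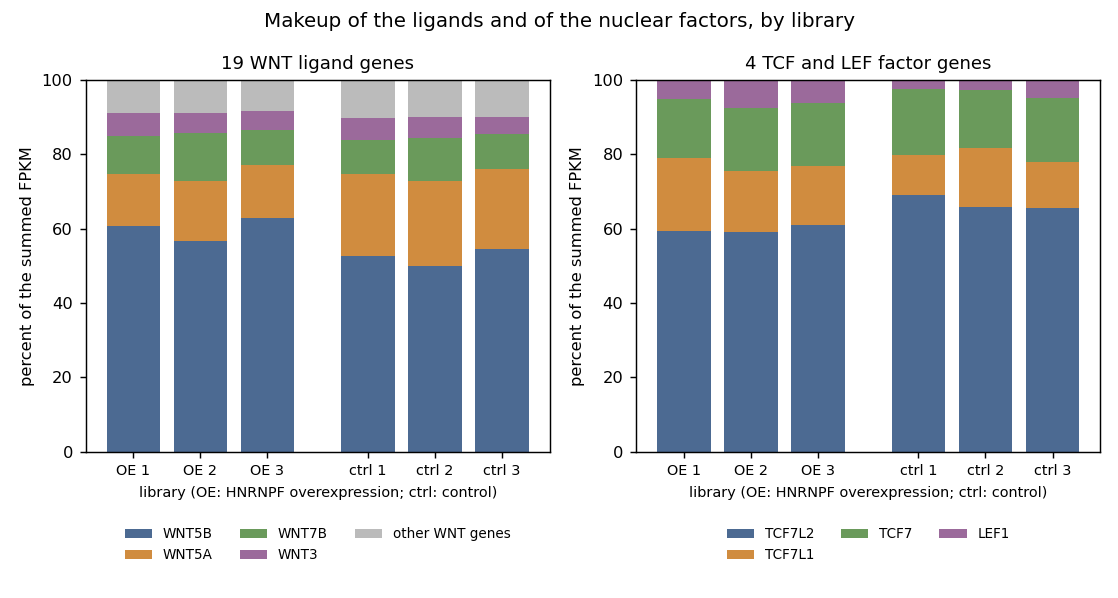
Share of the summed FPKM (y axis, percent) held by each gene in each library, for the 19 WNT ligand genes (left) and the 4 TCF and LEF genes (right), with the libraries labelled overexpression (OE) left of control (ctrl). WNT5A holds 14.0% to 16.2% in the overexpression libraries and 21.3% to 22.9% in the control libraries, and TCF7L2 holds 59.1% to 60.9% in the overexpression libraries and 65.6% to 68.9% in the control libraries.

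The other tested ligands did not pass. WNT7B, a ligand of epithelia including the collecting duct, averaged 6.18 FPKM in overexpression libraries and 5.49 FPKM in control libraries (log2 fold change 0.16, interval -0.17 to 0.49), and WNT3, a ligand of the beta-catenin branch, averaged 3.19 FPKM in overexpression libraries and 2.82 FPKM in control libraries (0.17, interval -0.14 to 0.48). WNT10B averaged 1.39 FPKM in overexpression libraries and 1.63 FPKM in control libraries (-0.22, interval -0.64 to 0.20). WNT9A averaged 1.34 FPKM in overexpression libraries and 1.42 FPKM in control libraries (-0.061, interval -0.52 to 0.40). WNT2B was the only one of these 5 with no overlap, at 1.22 FPKM in overexpression libraries and 1.72 FPKM in control libraries (-0.52, interval -1.13 to 0.090). The intervals of the ligands near 1 FPKM were wide. WNT4, which drives the forming nephron in mice, lay under the filter with 0.36, 0.25 and 0.27 FPKM in overexpression libraries and 0.17, 0.12 and 0.12 FPKM in control libraries. Its groups did not overlap, and in a fit with no filter its log2 fold change was 0.73 (adjusted p = 0.0792 in limma). WNT1 ran between 0.05 and 0.47 FPKM, and WNT8B, WNT16, WNT11, WNT10A, WNT3A, WNT9B and WNT2 were at no more than 0.42 FPKM.

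Of the 10 Frizzled receptors, which bind Wnt through a cysteine-rich outer domain, 9 were tested and FZD7 and FZD1 were higher. FZD7 (gene ID 8324, chromosome 2, 202033855 to 202038441) had 26.28, 32.46 and 27.42 FPKM in overexpression libraries, against 20.59, 20.43 and 25.21 FPKM in control libraries. The gap between the highest control library and the lowest overexpression library was small beside the spread within each group. FZD7 was 1.30-fold higher (log2 fold change 0.38, SE 0.11, interval 0.14 to 0.62, adjusted p = 0.0305 in limma). FZD1 (gene ID 8321, chromosome 7, 91264433 to 91271326) had 17.75, 20.72 and 18.46 FPKM in overexpression libraries, against 13.13, 14.37 and 17.32 FPKM in control libraries, again with 1 control library just under the overexpression libraries. It was 1.27-fold higher (log2 fold change 0.35, SE 0.11, interval 0.10 to 0.60, adjusted p = 0.0446 in limma).

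Both Frizzled calls changed when single libraries were left out. FZD7 lost its call without overexpression replicate 2 (adjusted p = 0.103) or 3 (0.0616) and without control replicate 1 (0.0930) or 2 (0.116). FZD1 lost it without overexpression replicate 1 (0.0562), 2 (0.143) or 3 (0.0925) and without control replicate 1 (0.134) or 2 (0.137). Both calls were also lost with no filter and with limma without its variance trend, and that of FZD1 with TPM scaling. Without control replicate 3, both had smaller p-values, 0.00780 for FZD7 and 0.00772 for FZD1. Control replicate 3 had the highest level of the 3 control libraries in 20 of the 32 tested Wnt genes (62.5%), beside 37.5% of all genes tested.

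FZD6, the most abundant Frizzled and a planar polarity receptor, had 35.31, 36.13 and 37.63 FPKM in overexpression libraries and 39.16, 40.61 and 36.56 FPKM in control libraries. The groups overlapped through control replicate 3 (log2 fold change -0.092, interval -0.24 to 0.059, adjusted p = 0.340 in limma). FZD2 averaged 17.6 FPKM in overexpression libraries and 17.3 FPKM in control libraries, and FZD5 9.34 FPKM in overexpression libraries and 10.6 FPKM in control libraries. The remaining receptors were low. FZD4 averaged 2.22 FPKM in overexpression libraries and 2.57 FPKM in control libraries, and FZD9 1.68 FPKM in overexpression libraries and 1.52 FPKM in control libraries. FZD3 averaged 1.35 FPKM in overexpression libraries and 1.33 FPKM in control libraries, and FZD8 1.11 FPKM in overexpression libraries and 1.18 FPKM in control libraries. None of these 6 passed the test, with limma adjusted p-values of 0.378 to 0.937. The summed Frizzled level was 117 ± 7.97 FPKM in overexpression libraries and 110 ± 8.5 FPKM in control libraries, of which FZD7 held 24.4% ± 1.52 in overexpression libraries and 20.0% ± 1.01 in control libraries.

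LRP5 and LRP6 are the co-receptors that carry the Wnt signal to axin. LRP5 (gene ID 4041, chromosome 11, 68298412 to 68449275) had 20.47, 23.06 and 21.92 FPKM in overexpression libraries, against 14.86, 16.77 and 19.59 FPKM in control libraries. It was the more abundant of the pair, with the groups just apart. LRP5 was 1.28-fold higher (log2 fold change 0.36, SE 0.10, interval 0.13 to 0.59, adjusted p = 0.0334 in limma). The median of 158 tested genes in the 10 Mb around it was 0.15, and after this was taken off LRP5 stood at 0.21 (adjusted p = 0.192). It also lost its call without overexpression replicate 2 (0.106) or 3 (0.0892) and without control replicate 1 (0.0978) or 2 (0.103), with no filter and with limma without its trend. LRP6 had 7.15, 7.28 and 6.86 FPKM in overexpression libraries and 6.91, 7.40 and 6.09 FPKM in control libraries. Its groups overlapped (log2 fold change 0.065, interval -0.17 to 0.30, adjusted p = 0.680 in limma).

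**Figure D3:**
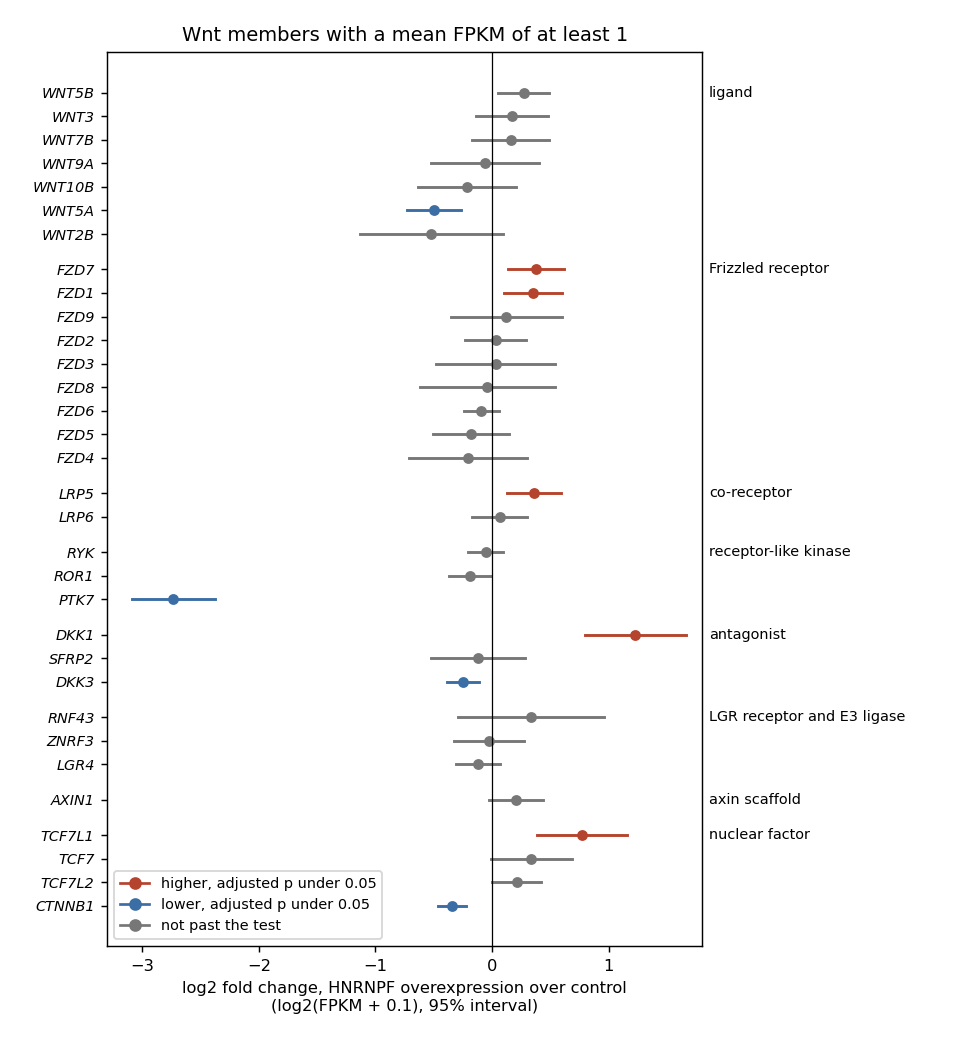
Log2 fold change of the 32 tested Wnt genes, libraries labelled HNRNPF overexpression over control (x axis, log2(FPKM + 0.1) scale), grouped by role, with 95% intervals as bars. PTK7 at -2.73 and DKK1 at 1.23 stand apart from the other genes, which lie between -0.52 and 0.77.

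The secreted antagonists moved in both directions. DKK1, which binds LRP5 and LRP6 and blocks the beta-catenin branch (gene ID 22943, chromosome 10, 52314281 to 52317657), had 8.38, 11.05 and 7.65 FPKM in overexpression libraries, against 4.14, 2.79 and 4.55 FPKM in control libraries. All overexpression libraries lay above all control libraries, and the spread within each group was wide. DKK1 was 2.34-fold higher, at 9.03 ± 1.79 FPKM in overexpression libraries and 3.83 ± 0.92 FPKM in control libraries (log2 fold change 1.23, SE 0.19, interval 0.80 to 1.66, adjusted p = 0.00305 in limma). It was past the test in all 18 alternatives, at 1.02 to 1.42. Its neighbours were lower rather than higher, with a median of -0.19 for 17 tested genes in 10 Mb.

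DKK3, a divergent family member that does not act on LRP6 as DKK1 does (gene ID 27122, chromosome 11, 11963036 to 12009745), was the most abundant antagonist. It had 145.98, 148.71 and 148.78 FPKM in overexpression libraries, against 166.13, 174.7 and 187.48 FPKM in control libraries. The overexpression libraries were close together and below all control libraries. DKK3 was 1.19-fold lower (log2 fold change -0.25, SE 0.062, interval -0.39 to -0.11, adjusted p = 0.0181 in limma), a call lost without overexpression replicate 1 (0.0543) or 3 (0.0622) and without control replicate 2 (0.0728), with TPM scaling and with a trend on GC content removed. Of the summed DKK level, DKK1 held 5.75% ± 1.05 in overexpression libraries and 2.12% ± 0.48 in control libraries. SFRP2, a decoy that binds Wnt ligands, averaged 5.37 FPKM in overexpression libraries and 5.90 FPKM in control libraries (log2 fold change -0.12, interval -0.52 to 0.28). SFRP4 ran from 0.43 to 0.67 FPKM, and SFRP1, SFRP5 and DKK4 were lower still.

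The receptors and ligases that set how many Frizzled receptors remain at the surface did not pass the test. LGR4, a receptor for R-spondins, had 12.94, 13.37 and 12.50 FPKM in overexpression libraries and 15.22, 13.59 and 13.47 FPKM in control libraries. The groups were just apart (log2 fold change -0.12, interval -0.31 to 0.065, adjusted p = 0.308 in limma). ZNRF3, an E3 ligase that removes Frizzled proteins, averaged 7.0 FPKM in overexpression libraries and 7.18 FPKM in control libraries (log2 fold change -0.027, interval -0.33 to 0.27). RNF43, the related ligase, averaged 1.23 FPKM in overexpression libraries and 0.93 FPKM in control libraries (log2 fold change 0.33, interval -0.29 to 0.96). LGR5 was under the filter.

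AXIN1, the scaffold of the destruction complex, had 15.68, 17.36 and 17.40 FPKM in overexpression libraries and 13.14, 13.84 and 16.96 FPKM in control libraries. The third control library fell among the overexpression libraries (log2 fold change 0.20, interval -0.029 to 0.44, adjusted p = 0.175 in limma, and 0.0209 without control replicate 3). Leaving out other libraries gave adjusted p-values up to 0.432 in limma, and AXIN1 was past the test in 1 of 18 alternatives. AXIN2, a feedback inhibitor widely read as a target of beta-catenin, had 0.72, 1.28 and 1.00 FPKM in overexpression libraries and 0.47, 0.77 and 1.41 FPKM in control libraries. It lay under the filter, the groups overlapped, and the fit with no filter gave a log2 fold change of 0.24 (adjusted p = 0.696 in limma).

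CTNNB1, which encodes beta-catenin (gene ID 1499, chromosome 3, 41199505 to 41240443), had 124.76, 123.68 and 122.62 FPKM in overexpression libraries, against 158.54, 160.59 and 152.44 FPKM in control libraries. The groups were well apart, with little spread within either. CTNNB1 was 1.27-fold lower (log2 fold change -0.35, SE 0.055, interval -0.47 to -0.22, adjusted p = 0.00309 in limma). The 53 other tested genes in the 10 Mb around it had a median of -0.30, so that after this shift was taken off CTNNB1 stood at -0.048 (adjusted p = 0.579). It kept its call in the other 17 alternatives.

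**Figure D4:**
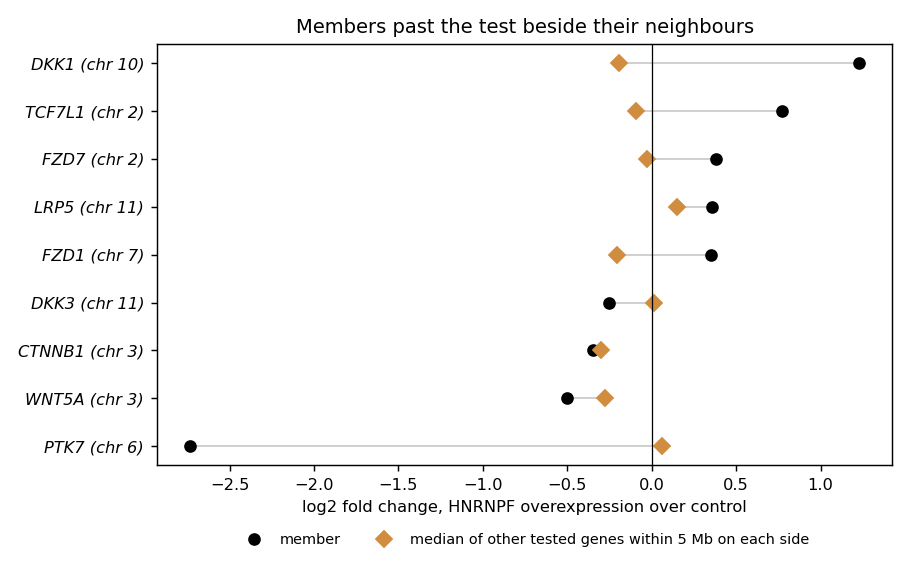
Log2 fold change, libraries labelled overexpression over control (x axis), of the 9 Wnt genes past the test (black points) and the median of the other tested genes in the 10 Mb window around each (orange diamonds). For CTNNB1 the point at -0.35 lies beside the neighbours at -0.30, while PTK7 at -2.73 and DKK1 at 1.23 lie far from theirs at 0.059 and -0.19.

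The TCF and LEF factors carry beta-catenin to DNA. TCF7L1, mainly a repressor (gene ID 83439, chromosome 2, 85133392 to 85310387), had 3.71, 3.65 and 3.24 FPKM in overexpression libraries, against 1.64, 2.42 and 2.09 FPKM in control libraries. All overexpression libraries were higher. TCF7L1 was 1.71-fold higher (log2 fold change 0.77, SE 0.17, interval 0.39 to 1.16, adjusted p = 0.0123 in limma) and kept its call in all 17 alternatives that tested it. TCF7L2, the most abundant factor, averaged 12.3 FPKM in overexpression libraries and 10.6 FPKM in control libraries (log2 fold change 0.21, interval 0.0018 to 0.42, adjusted p = 0.125 in limma), and TCF7 averaged 3.41 FPKM in overexpression libraries and 2.68 FPKM in control libraries (log2 fold change 0.34, interval -0.0089 to 0.68, adjusted p = 0.136). LEF1 had 0.98, 1.71 and 1.26 FPKM in overexpression libraries and 0.37, 0.44 and 0.82 FPKM in control libraries, with no overlap. Its overall mean was under the filter, and the fit with no filter gave a log2 fold change of 1.17 (SE 0.32, adjusted p = 0.0450 in limma). The summed level of the 4 factors was 18.77, 22.36 and 20.45 FPKM in overexpression libraries, against 14.95, 15.43 and 17.13 FPKM in control libraries, again with no overlap, and TCF7L2 held 59.8% ± 1.01 of it in overexpression libraries and 66.8% ± 1.83 in control libraries.

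The other genes of the pathway were taken from 5 lists, of which 97 genes were tested. The lists were chosen with earlier results of these data known, so their shares cannot measure an excess in either direction. In all, 14 were higher (14.4%, beside 11.3% of all genes tested) and 19 lower (19.6%, beside 13.1%). In the list of Wnt secretion and extracellular modulators, 1 of 14 tested genes was higher and 5 lower (7.14% and 35.7%, beside 11.3% and 13.1% of all genes tested, median log2 fold change -0.038). PORCN, the enzyme that adds the lipid which Wnt proteins need for secretion, had the largest change of that list, at 19.4 ± 2.58 FPKM in overexpression libraries and 38.9 ± 2.24 FPKM in control libraries (log2 fold change -1.004, adjusted p = 2.88e-04 in limma). RSPO3, an R-spondin ligand of LGR4 and LGR5, averaged 7.86 ± 1.01 FPKM in overexpression libraries and 14.0 ± 1.91 FPKM in control libraries (-0.83, adjusted p = 0.00268). GPC6, a cell surface glypican, fell by 0.45 on the log2 scale (adjusted p = 0.00431), and LRP4, a co-receptor relative, rose by 0.32 (adjusted p = 0.0232). PORCN, RSPO3 and GPC6 kept their calls in all 18 alternatives, and LRP4 lost its call without any 1 of the overexpression libraries or without control replicate 1 or 2 (adjusted p up to 0.0905). WLS and GPC4, also among the lower genes of this list, lost their calls once the shift of their neighbours was taken off (adjusted p = 0.0883 and 0.0899 in limma).

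In the planar polarity and non-canonical list, 1 of 20 tested genes was higher and 7 lower (5% and 35%, beside 11.3% and 13.1% of all genes tested, median log2 fold change -0.20). FUZ, a planar polarity effector of cilia, fell by 0.66 on the log2 scale (adjusted p = 0.0191 in limma), PRICKLE1, a core polarity protein, by 0.60 (adjusted p = 0.00276) and CELSR1, a polarity cadherin, by 0.50 (adjusted p = 0.0129). NFATC1, a calcium-driven transcription factor, rose by 0.67 (adjusted p = 0.0116). In the list of the destruction complex and cytoplasmic transducers, 4 of 19 were higher and 2 lower (21.1% and 10.5%, beside the same 11.3% and 13.1%, median 0.014). The kinase CSNK1D rose by 0.39 (adjusted p = 0.00190), the GSK3-binding protein FRAT2 by 0.48 (adjusted p = 0.0467) and the dishevelled protein DVL1 by 0.38 (adjusted p = 0.0419), while the kinase CSNK1G3 changed by -0.31 (adjusted p = 0.0396). All 4 of these and NFATC1 and LRP4 lost their calls once the shift of their neighbours was taken off. So did RHOA, ROCK1 and MAPK8, also among the lower genes of the planar polarity list (adjusted p = 0.86, 0.66 and 0.084 in limma). Leaving out control replicate 2 also ended the calls of NFATC1 (adjusted p = 0.0515), FUZ, FRAT2, DVL1 and CSNK1G3, and control replicate 1 those of the last 4. Over all libraries left out in turn, the highest adjusted p in limma was 0.0693 for FUZ, 0.163 for FRAT2, 0.141 for DVL1 and 0.118 for CSNK1G3. FRAT2 was further lost without overexpression replicate 1 or 2, DVL1 without 2 or 3, and CSNK1G3 without any 1 of the overexpression replicates.

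Of 18 nuclear cofactors of beta-catenin, 3 were higher and 1 lower (16.7% and 5.56%, beside 11.3% and 13.1% of all genes tested, median log2 fold change -0.0075). TLE2, a Groucho corepressor of TCF factors, averaged 0.98 ± 0.18 FPKM in overexpression libraries and 2.59 ± 0.55 FPKM in control libraries (log2 fold change -1.31, adjusted p = 0.00421 in limma). CTNNBIP1, which keeps beta-catenin from TCF factors, rose by 0.47 (adjusted p = 0.0109), and the corepressors CTBP1 and CTBP2 rose by 0.35 and 0.25 (adjusted p = 0.0339 and 0.0236). Of 26 genes in the list of commonly used Wnt targets, 5 were higher and 4 lower (19.2% and 15.4%, beside the same 11.3% and 13.1%, median 0.11). MMP7, a metalloproteinase, averaged 10.9 ± 1.595 FPKM in overexpression libraries and 25.7 ± 1.89 FPKM in control libraries (-1.24, adjusted p = 1.88e-04). BAMBI, a decoy receptor of the TGF-beta family, averaged 19.9 ± 1.42 FPKM in overexpression libraries and 10.4 ± 2.42 FPKM in control libraries (0.95, adjusted p = 0.00345). TBX3, a transcription factor, rose by 0.83 (adjusted p = 0.0171). TLE2 passed the filter on low values only through the control libraries and TBX3 only through the overexpression libraries. TLE2, MMP7 and BAMBI kept their calls in every alternative that tested them, and CTNNBIP1 and CTBP1 lost theirs once the shift of their neighbours was taken off. Without control replicate 2, calls were lost for CTNNBIP1 (adjusted p = 0.0508), TBX3, CTBP1 and CTBP2. Over all libraries left out in turn, the highest adjusted p in limma was 0.0680 for TBX3, 0.121 for CTBP1 and 0.0903 for CTBP2. Without overexpression replicate 2 or 3, TBX3, CTBP1 and CTBP2 lost theirs, and CTBP2 also without overexpression replicate 1 and both CTBP genes without control replicate 1.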

How the data were processed

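RNA was poly(A)-selected and sequenced as paired-end, stranded libraries from 6 HK-2 samples, grouped by their titles. The authors trimmed the reads, aligned them to GRCh38 with HISAT2 and computed FPKM per gene from uniquely mapped reads. The processing notes of the submitters name HISAT2 and DESeq2. The FPKM values deposited by the authors have 2 decimals and correct for transcript length and library size, not for the makeup of a library. The study's methods name a batch correction (ComBat_seq), and whether it touched this table is not given in the sources used here, nor are the annotation or the use of strand in counting, so reads of antisense partners cannot be told apart.

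FPKM is no count, so the count test of the study was not used. In its place, log2(FPKM + 0.1) values were fitted in R 4.3.3 with limma 3.58.1 (lmFit, then eBayes allowing a variance trend), two-sided. The 12461 genes averaging 1 FPKM or more were tested, and p-values were adjusted by Benjamini-Hochberg over all of them. Calls needed an adjusted p under 0.05. Changes of 2-fold were counted beside that. Low values did not step by whole fragments. At the best of many depths tried, 45.0% to 58.8% of 34 to 70 values per library lay within 0.15 of a whole number. Chance gives 30% at a fixed depth and more at the best of many. Fragments per gene were thus not recovered, and no counting interval is given. The read totals in the study's supplement were not used here, since they are listed by medium and the labels do not give the medium of these libraries.

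The Wnt genes and the lists were chosen with earlier results of these data known. Named were all tested Wnt genes, with library values for those past the test, for CTNNB1, LRP5, LRP6, AXIN2 and PTK7 and for the most abundant of each role. Values in every library were also given for RYK, AXIN1, LEF1, WNT4 and the summed TCF and LEF level, chosen after they were seen. WLS, GPC4, RHOA, ROCK1 and MAPK8 were named for their lost calls, also after these were seen. Of the other lists, up to 4 genes with the largest change past the test were named. A gene taken by this rule is not reported here. Gene identifiers and coordinates came from RefSeq GRCh38.p14, which matched 98.6% of symbols and all 54 Wnt genes. The alternatives were pseudocounts of 1 and 0.01, no filter or a filter at 5, scaling by TPM, by quantiles or by median-of-ratios factors, limma run without its trend or robustly, a block for the replicate number, removal of the median shift of neighbours in 10 Mb, and leaving out each library. Removal of a trend on GC content was chosen after seeing the data. Figures were drawn with matplotlib 3.10.9.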

Additional observations from a re-analysis of the deposited data

How the results depend on the processing

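Of 920 values for 52 named genes under 18 alternatives, 807 kept their direction and their side of the threshold, 83 lost the call, 3 gained it and 27 turned round, none of these past the test. The number of Wnt genes higher, 5 as reported, was 3 with no filter, 2 with limma without trend and 2 to 7 when a library was left out, with 2 each without overexpression replicate 2 or 3 or control replicate 1 or 2 and 7 without control replicate 3. The number lower, 4, was 2 after removal of the neighbours' shift and 3 to 4 without 1 library. The 2 genes past 2-fold were 1 at a filter of 5 FPKM, which leaves PTK7 untested, and 3 with no filter, where LEF1 enters. Over all genes, 3039 calls became 2000 after removal of the neighbours' shift and 1247 (without control replicate 2) to 4254 (without control replicate 3) when a library was left out. For the other pathway genes, 14 higher became 7 and 19 lower became 11 after removal of the neighbours' shift, with 2 to 28 higher and 9 to 20 lower when a library was left out, again least without control replicate 2 and most without control replicate 3. HNRNPF stayed lower throughout (-0.82 to -0.63).

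Directions that turned, as log2 fold changes, were those of genes that did not pass the test. With the GC trend removed these were FZD6 (0.032), FZD2 (-0.051), FZD9 (-0.024) and RYK (0.072). With the neighbours' shift removed they were FZD2 (-0.18), FZD8 (0.059), LGR4 (0.020), ZNRF3 (0.034), WNT3 (-0.041) and RYK (0.050). Quantile scaling turned FZD3 (-0.015) and TPM scaling ZNRF3 (0.0087). Leaving out 1 library gave -0.051 to 0.17 for FZD2, -0.33 to 0.0024 for FZD4, -0.0078 to 0.28 for FZD9, -0.10 to 0.17 for FZD3, -0.21 to 0.20 for FZD8, -0.11 to 0.11 for ZNRF3, -0.26 to 0.067 for SFRP2, -0.011 to 0.13 for LRP6 and -0.19 to 0.052 for WNT9A. The cause was not tested.

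Replicate numbers gave no clear pairing of the libraries. Same-numbered libraries deviated from their group means with correlations of 0.091, -0.086 and 0.0057. Overexpression replicates 1 and 2 matched control replicates 2 (0.096) and 3 (0.15) best, and overexpression replicate 3 matched control replicate 3 best (0.0057). All these correlations were weak. With the replicate block, 3115 genes were called, among the Wnt genes 6 higher (WNT5B was added, adjusted p = 0.0303) and 4 lower, and of the other pathway genes 18 higher and 17 lower. The median log2 fold change of all genes was -0.013 as deposited, -0.00035 and 0.00011 with median-of-ratios and quantile scaling and 0.022 with TPM scaling. With 3 libraries a group and no fragment counts, intervals of genes near 1 FPKM are wide.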
